A study of Homo sapiens with 8 samples.

Results

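Copying the genome in S phase needs proteins that mark origins, load and start the replicative helicase, make DNA at the fork and repack it. The transcripts of 56 such genes were followed in 2 human thyroid cancer cell lines, CAL-62 and BCPAP, given the drug THZ1. The genes were taken by name from a list. All 56 were listed and tested in both lines, of 12715 genes listed in either table. THZ1 is a covalent inhibitor of CDK7, a kinase that acts on RNA polymerase II at gene starts and also activates cell-cycle kinases, and the study asked how its presence alters transcript levels in these lines. The 8 poly(A)-selected RNA-seq libraries form 4 groups of 2: CAL-62 with THZ1, CAL-62 with DMSO, BCPAP with THZ1 and BCPAP with DMSO, the solvent of the drug. THZ1 was given at 100 nM for 6 h, and the labels give no time for DMSO. The labels call both lines anaplastic thyroid cancer and record no engineered allele or other agent. CAL-62 grew in DMEM with 20% serum and BCPAP in RPMI medium with 10% serum, and the effects of line and medium cannot be told apart.

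In the textbook order of events, the origin recognition complex (ORC) binds origins, and CDC6 and CDT1 use it to load the ring-shaped MCM helicase in G1, a step that geminin blocks once S phase has begun. CDC45 and the GINS complex then join the ring and turn it into an active helicase, polymerase alpha with its primase starts each strand, and polymerases delta and epsilon extend it while held on DNA by the PCNA clamp. Many of these genes are driven by E2F factors, so that their transcripts rise as cells enter S phase.

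The deposited values are of RPKM type, that is, reads per gene scaled to gene length and to a library total. Values below are in that unit, given for replicate 1 and then replicate 2. A change is the THZ1 mean minus the DMSO mean of log2(value + 1), with its standard error (SE) from limma. A gene is called when its limma p-value, adjusted by Benjamini-Hochberg over all genes tested, is under 0.05. Reads in listed genes came to 16682482 to 19989710 per library, and each of the 56 genes had at least 138 reads in every library. Whether the 2 replicates of a group were separate cultures is not in the labels, and p-values therefore reflect only how far these libraries spread, a spread that may be technical. In bulk RNA, fewer cells in S phase and less RNA per cell cannot be told apart. Of 8 thyroid follicular markers, 1 was listed in CAL-62 (PAX8) and 3 in BCPAP (PAX8, NKX2-1 and FOXE1). TG, which encodes thyroglobulin, a defining product of differentiated thyroid cells, was outside both tables, which hold genes with a DMSO mean above 1. The summed thyroid markers came to 5.20 and 29.8 in CAL-62 with THZ1, against 91.1 and 117 in CAL-62 with DMSO, and to 70.6 and 103 with THZ1, against 97.5 and 148 with DMSO, in BCPAP. The blood list (1 of 5 listed, CD68) summed to 26.3 and 25 with THZ1 and to 16.3 and 13.2 with DMSO in CAL-62, and to 58 and 75.1 with THZ1 and 50.4 and 57.9 with DMSO in BCPAP, while PTPRC, CD3E and CD14 were outside both tables. Of 6 epithelial markers 5 were listed in CAL-62, with sums of 2277 and 2915 with THZ1 and 1360 and 1691 with DMSO, and 3 in BCPAP, with overlapping groups. The fibroblast list (1 of 6 listed) summed to 62.3 and 32 with THZ1 and to 39.8 and 31 with DMSO in CAL-62. The 4 endothelial markers were outside both tables, and the part of the moving markers in the results below was not tested.

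In CAL-62, 4 replication genes were called lower with THZ1 and none higher under the deposited scaling, without the replicate number as a block. With median-of-ratios size factors the same 4 were called lower and MCM2 higher (limma adjusted p = 0.0459). Over all genes, 480 were called lower and 130 higher in that setting. With the replicate number as a block, 13 members were called higher and 10 lower, beside 2503 and 2060 over all genes. The labels do not say what a number marks. GINS1, a subunit of the helicase activator GINS, fell to 0.203 of its DMSO mean, POLD3, a subunit of polymerase delta, to 0.305, ORC2 to 0.373 and CHAF1A, the large subunit of the histone chaperone CAF-1, to 0.427. The 4 make up 7.14% of the 56, against 4.62% of the 11362 genes tested in CAL-62, of which 4.04% were called lower and 0.581% higher. Fewer members were called when any 1 DMSO library of either line, or any 1 CAL-62 THZ1 library, was left out. Fewer calls were made over all genes in those fits too. The other members lay on both sides of zero. With the deposited scaling 30 of the 56 changes were positive (against 51.8% of all genes) and 26 negative. The member median was 0.05, against 0.03 over all genes tested. Once low genes were dropped by raising the minimum mean to 5, the all-gene median was 0.18. The member median stayed at 0.05, and so lay below it. The balance of signs moved with the scaling. With ribosomal protein genes as the reference, or with mitochondrially encoded genes, all 56 changes were negative in CAL-62. The median of all genes then stood at -0.81 and -0.82, and that of the members at -0.89 and -0.95. The 4 called genes were negative under each of the 5 scalings tried, although none of the 56 was called with mitochondrially encoded genes as the reference or when CAL-62 was fitted alone. Without the first CAL-62 THZ1 library the members' median was -0.01.

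More members stood apart without passing the adjusted threshold. An unadjusted limma p under 0.05 was reached by 22 of the 56 (39.3%, against 30.1% of all genes tested), 10 lower (against 15.7%) and 12 higher (against 14.4%) under the deposited scaling. The limma-voom test on recovered reads called 5 members (8.93%, against 5.48% of all genes), adding MCM2 as higher under the deposited scaling. Under the deposited scaling the THZ1 libraries lay wholly above the DMSO libraries of CAL-62 for 21 members (37.5%, against 30.1% of all genes) and wholly below for 16 (28.6%, against 27.4%).

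**Figure D1:**
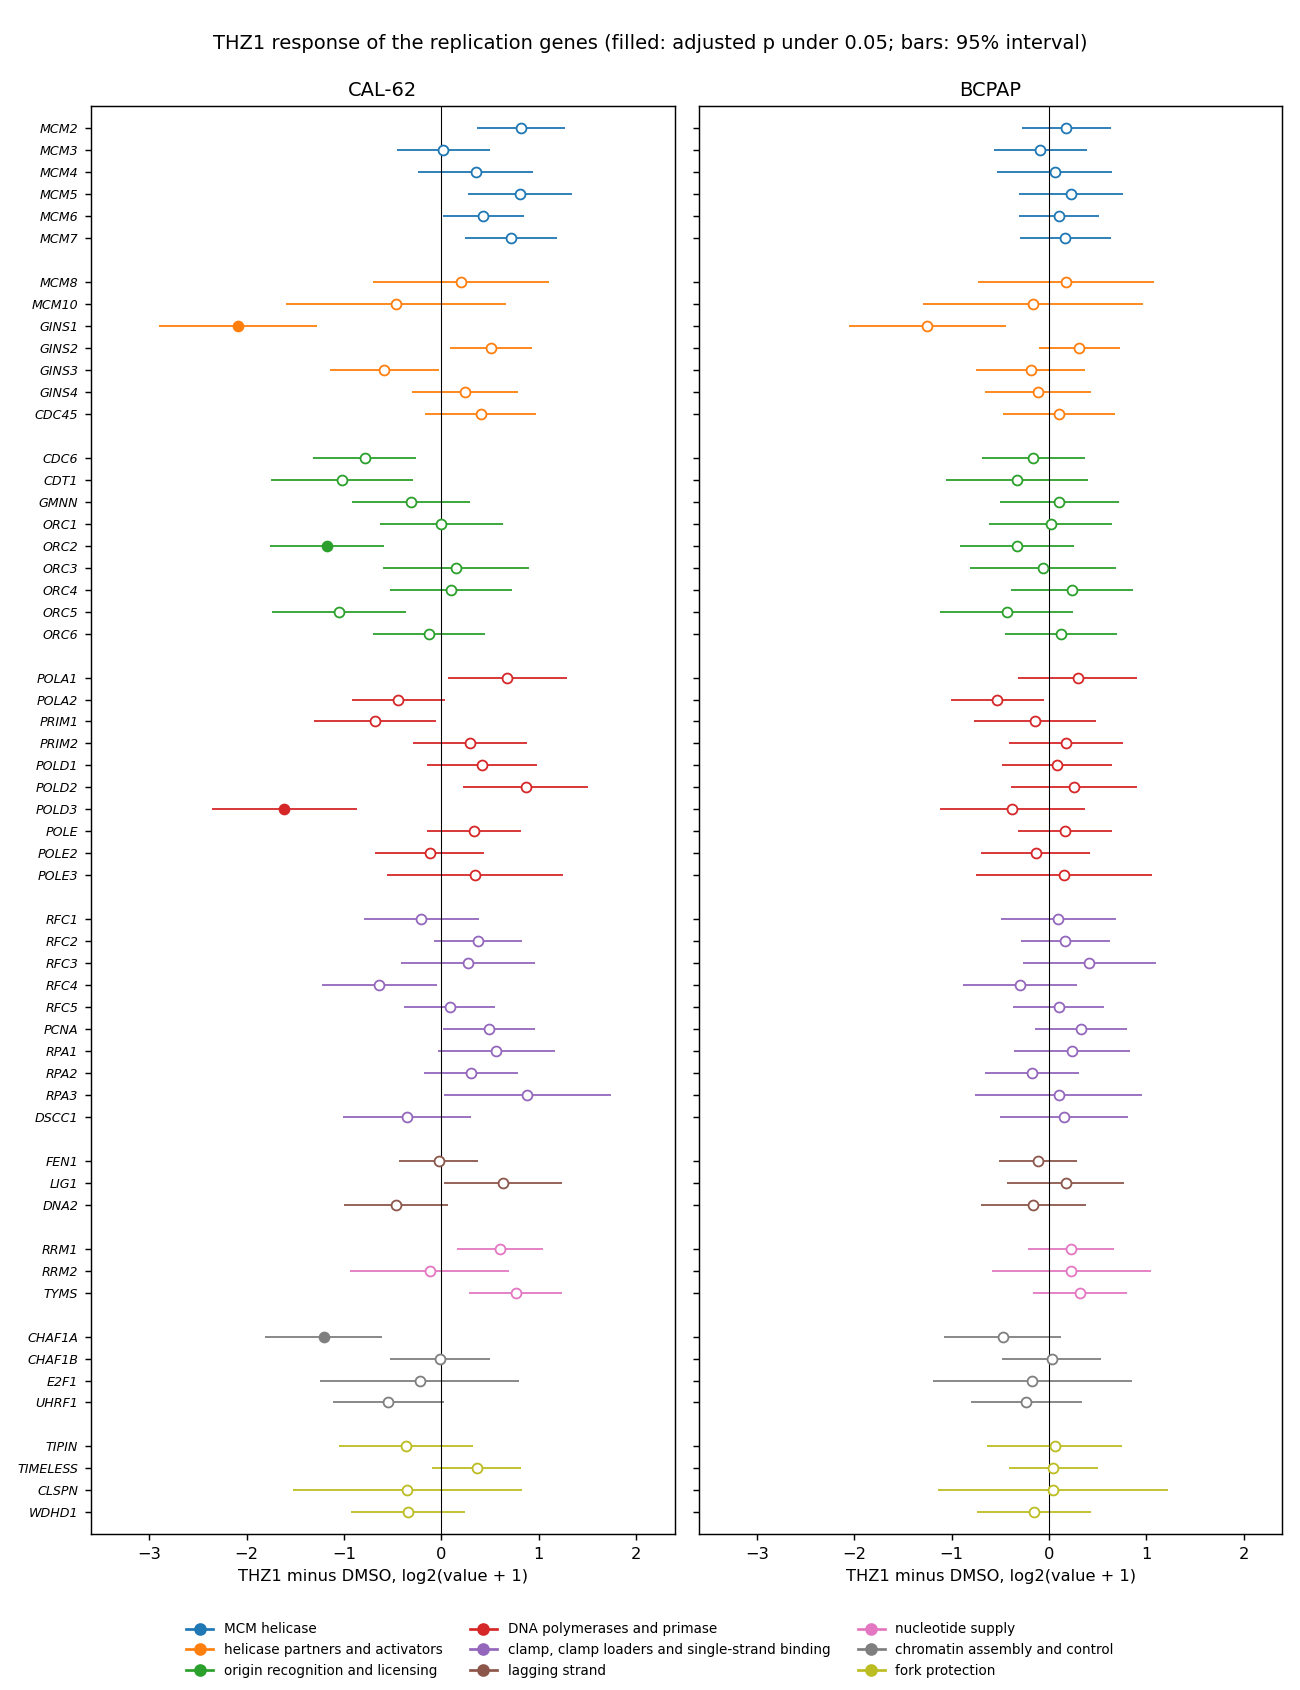
Change of each of the 56 genes with THZ1 in CAL-62 (left) and BCPAP (right), as THZ1 minus DMSO in log2(value + 1) with the deposited scaling, coloured by role; bars are 95% intervals and filled points have a limma adjusted p under 0.05. The 4 filled points are GINS1, ORC2, POLD3 and CHAF1A in CAL-62, and no BCPAP point is filled. With ribosomal protein genes as the reference all 56 CAL-62 points would lie left of zero, and the median over all genes was -0.81.

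Member promoters were searched for motifs and set beside those of all genes tested. RefSeq promoter sequences (GRCh38.p14) were matched by symbol for 48 of the 56 members, and the 250 bases before the start were searched on both strands. The letters were those of E2F sites, in a first form TTCCCGC, a second form TTGGCGC and the third form TTCGCGC, and of the NF-Y box (CCAAT), elements known from S-phase and cell-cycle promoters. Some E2F form stood in 24 of the 48 member promoters (50%), against 19.4% of the 8389 matched promoters of tested genes and 11.2% of all 27305. The NF-Y box stood in 62.5% of member promoters, against 42.1% of those of tested genes. The cell cycle homology letters TTTGAA stood in 4.17%, against 11.4%. GINS1, ORC2 and CHAF1A are shown because they were called lower in CAL-62. Capitals mark the letters of these motifs on either strand, so ATTGG is an NF-Y box on the opposite strand, and positions run upstream of the start.
GINS1, chr20:25407423-25407672, plus strand: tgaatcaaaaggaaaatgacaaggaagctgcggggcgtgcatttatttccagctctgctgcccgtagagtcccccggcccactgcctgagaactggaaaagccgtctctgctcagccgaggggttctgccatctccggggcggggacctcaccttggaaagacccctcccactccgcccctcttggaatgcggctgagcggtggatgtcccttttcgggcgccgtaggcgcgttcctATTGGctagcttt
ORC2, chr2:200963661-200963910, minus strand: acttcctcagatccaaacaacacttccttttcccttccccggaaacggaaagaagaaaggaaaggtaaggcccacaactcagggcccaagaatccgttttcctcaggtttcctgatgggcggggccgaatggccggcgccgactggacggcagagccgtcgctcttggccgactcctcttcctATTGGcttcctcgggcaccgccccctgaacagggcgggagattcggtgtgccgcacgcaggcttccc
CHAF1A, chr19:4402390-4402639, plus strand: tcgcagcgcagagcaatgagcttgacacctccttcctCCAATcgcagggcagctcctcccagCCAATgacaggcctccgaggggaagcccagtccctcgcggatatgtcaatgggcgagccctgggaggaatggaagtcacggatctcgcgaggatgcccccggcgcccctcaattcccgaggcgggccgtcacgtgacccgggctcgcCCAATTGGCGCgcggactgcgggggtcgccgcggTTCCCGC
The GINS1 and ORC2 windows held 1 NF-Y box each, 13 and 67 bases before the start, and none of the 3 E2F forms. The CHAF1A window held 6 matches, among them an E2F form 37 bases and another 7 bases before the start, and the first of these overlaps NF-Y letters. POLD3, the other called member, is named only. A match of letters is a description of the window and not a bound site.

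The MCM helicase itself was among the members with positive changes. Under the deposited scaling all 6 ring subunits had a positive change in CAL-62, with a median of 0.58. With ribosomal protein genes as the reference all 6 were negative (median -0.42). None was called with limma under the deposited scaling without a replicate block. Here and below, CAL-62 changes with the ribosomal protein reference stand beside a median of -0.81 over all genes. MCM2 measured 181 and 153 with THZ1, against 101 and 86.8 with DMSO (change 0.82, SE 0.20, limma adjusted p = 0.0554). MCM5 measured 124 and 115 with THZ1 and 74.8 and 61.2 with DMSO (change 0.81, limma adjusted p = 0.0751). MCM7, the most abundant of the 56 in CAL-62 with THZ1, measured 223 and 237 there and 135 and 144 with DMSO (change 0.72, limma adjusted p = 0.0743). For these 3 subunits, and for MCM4 and MCM6, both THZ1 libraries were above both DMSO libraries. MCM3 overlapped, at 78.1 and 104 with THZ1 against 93.5 and 84.4 with DMSO. In BCPAP the 6 changes ran from -0.09 to 0.22, and MCM2 measured 55.5 and 61.1 with THZ1, against 53.8 and 49.0 with DMSO. MCM2 shares exon sequence on the opposite strand with TPRA1 and MCM7 with AP4M1, and the strand setting of the counting is not given, so their reads may be mixed.

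GINS1 had the largest change of the 56 genes in both lines. In CAL-62 it measured 3.04 and 5.41 with THZ1, against 22.7 and 18.8 with DMSO (change -2.09, SE 0.35, limma adjusted p = 0.0245). In BCPAP it measured 6.30 and 3.11 with THZ1, against 13.4 and 10.8 with DMSO (change -1.25, SE 0.35, 95% interval -2.06 to -0.44, limma adjusted p = 0.932). Both THZ1 libraries were below both DMSO libraries in each line, and the BCPAP change did not pass the threshold. The CAL-62 call was lost when either CAL-62 DMSO library or the first CAL-62 THZ1 library was left out, with an adjusted p of 0.0648 to 0.149. GINS is built of 4 subunits that work as a unit, and the other subunits had smaller changes in CAL-62. GINS2 measured 46.5 and 47.8 with THZ1 and 33.4 and 32.2 with DMSO in CAL-62 (change 0.51, adjusted p = 0.113 from limma). GINS3 measured 7.85 and 6.89 with THZ1 and 10.9 and 12.1 with DMSO (change -0.58, limma adjusted p = 0.153). GINS4 had a change of 0.25. With ribosomal protein genes as the reference GINS2 and GINS4 were negative too.

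**Figure D2:**
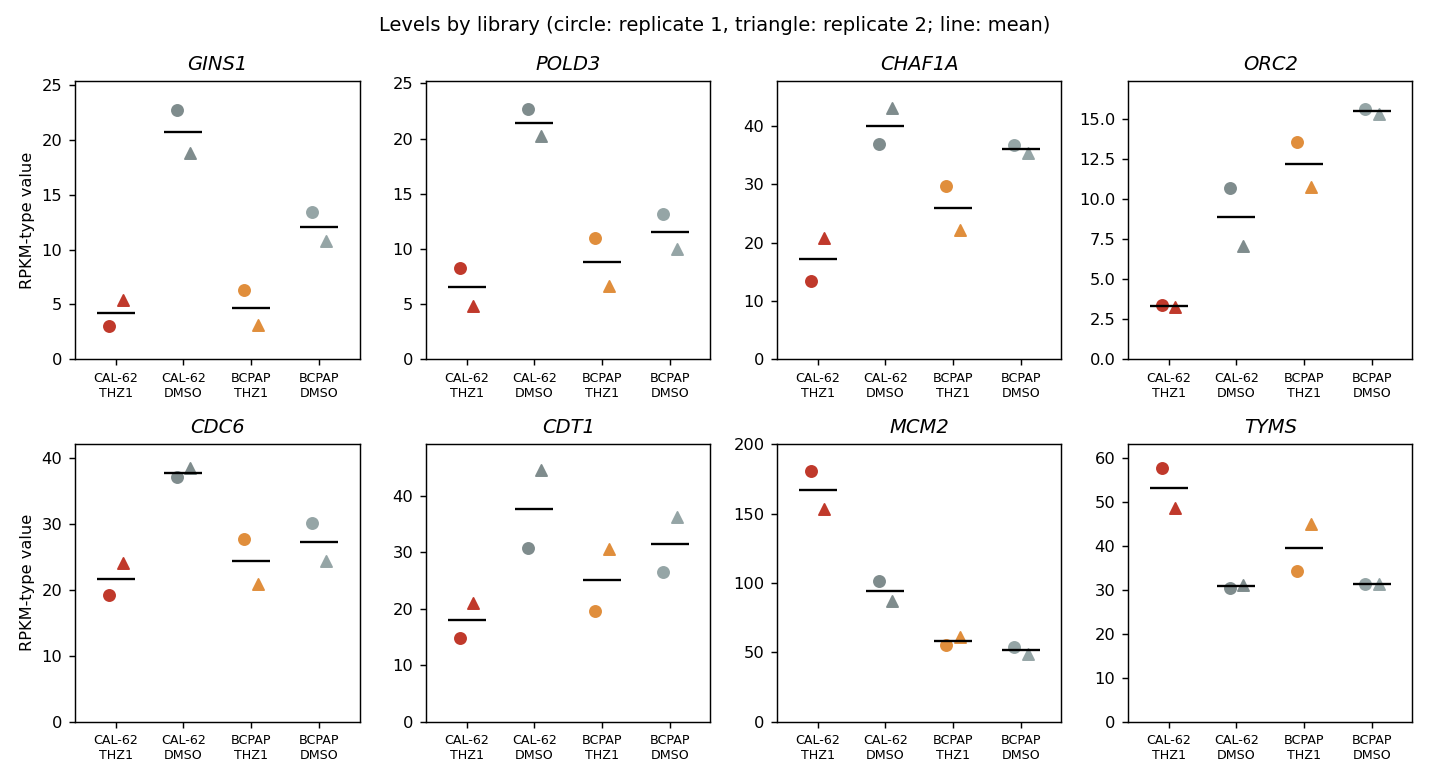
RPKM-type value of 8 genes in every library, with THZ1 left of DMSO for each line; circles are replicate 1, triangles replicate 2 and lines the mean of the 2. GINS1, POLD3, CHAF1A and ORC2 sit lower with THZ1 in CAL-62. GINS1 stood there at 3.04 and 5.41 with THZ1 against 22.7 and 18.8 with DMSO. MCM2 and TYMS sit higher under the deposited scaling. In CAL-62 both were negative with ribosomal protein genes as the reference, where the median over all genes was -0.81.

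Among the remaining helicase partners, CDC45, which links MCM and GINS, measured 35.6 and 34.9 with THZ1 and 28.4 and 24.5 with DMSO in CAL-62 (change 0.40). MCM10, which helps the helicase start, measured 17.4 and 7.62 with THZ1 and 19.2 and 14 with DMSO. Its libraries overlapped, and the replicates of each group differed by a wide margin. MCM8, a relative of the ring subunits that works in recombination, measured 48.0 and 30.9 with THZ1 against 39.9 and 27.9 with DMSO in CAL-62, and 37.3 and 20.0 with THZ1 against 31.1 and 18.6 with DMSO in BCPAP. These libraries overlapped in both lines.

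Origin recognition and licensing held the next called gene. Under the deposited scaling 6 of the 9 genes had a negative change in CAL-62, and all 9 were negative with upper-quartile scaling, ribosomal protein genes or mitochondrially encoded genes as the reference. It was ORC2, a core ORC subunit, which measured 3.37 and 3.27 with THZ1, against 10.7 and 7.08 with DMSO in CAL-62 (change -1.17, SE 0.25, limma adjusted p = 0.0446). In BCPAP it measured 13.6 and 10.7 with THZ1, against 15.6 and 15.3 with DMSO (change -0.33, 95% interval -0.92 to 0.25, limma adjusted p = 0.932). The groups did not overlap in either line. The CAL-62 call did not outlast the loss of any CAL-62 library or of either BCPAP DMSO library (adjusted p 0.0788 to 0.179), nor a minimum mean value of 5, and ORC2 also has an opposite-strand neighbour that shares exon sequence. ORC5, another core subunit, measured 5.27 and 6.28 with THZ1 and 14.1 and 12.1 with DMSO (change -1.05, SE 0.30, limma adjusted p = 0.0738). CDT1, the MCM loader, measured 14.9 and 21 with THZ1 and 30.8 and 44.6 with DMSO (change -1.02, limma adjusted p = 0.0846). CDC6, which loads MCM together with CDT1, measured 19.1 and 24.0 with THZ1 and 37.1 and 38.4 with DMSO (change -0.79, limma adjusted p = 0.0763). For these 3 genes the CAL-62 groups did not overlap, yet none was called, and in BCPAP each had overlapping groups with changes of -0.44, -0.33 and -0.16. GMNN encodes geminin, the inhibitor of CDT1. It measured 49.9 and 36.6 with THZ1 and 58.2 and 48.8 with DMSO in CAL-62, with overlapping groups. ORC1, ORC3, ORC4 and ORC6 overlapped as well, with changes between -0.13 and 0.15.

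The polymerases split by subunit. POLD3, an accessory subunit of polymerase delta, measured 8.28 and 4.79 with THZ1, against 22.7 and 20.2 with DMSO in CAL-62 (change -1.61, SE 0.32, limma adjusted p = 0.0390). In BCPAP its groups overlapped, at 11 and 6.65 with THZ1 against 13.1 and 9.95 with DMSO (change -0.38, 95% interval -1.12 to 0.37). The CAL-62 call ended when either DMSO library of either line, or the second CAL-62 THZ1 library, was left out (adjusted p 0.0604 to 0.198). The other subunits of the same enzyme had changes of the opposite sign under the deposited scaling and negative ones with ribosomal protein genes as the reference. POLD2, which bridges POLD3 to the catalytic subunit, measured 141 and 122 with THZ1 and 80.6 and 63.2 with DMSO (change 0.87, SE 0.28, limma adjusted p = 0.0919). POLD1, the catalytic subunit, measured 24.7 and 26.9 with THZ1 and 21.8 and 16.7 with DMSO (change 0.42). It shares exon sequence with AC020909.1 on the same strand.

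Polymerase alpha and primase were split in a similar way under the deposited scaling, and again all negative in CAL-62 with ribosomal protein genes as the reference. POLA1, the catalytic subunit, had a change of 0.68 (limma adjusted p = 0.135). PRIM1, which makes the RNA primer, measured 7.93 and 14.3 with THZ1 and 18.6 and 16.9 with DMSO in CAL-62 (change -0.68, limma adjusted p = 0.144). POLA2, the regulatory subunit, was the sole member besides GINS1 with an unadjusted p under 0.05 in BCPAP. It measured 17.5 and 18.1 with THZ1, against 27.3 and 25.1 with DMSO there (change -0.53, limma adjusted p = 0.932), and 22.8 and 29.5 with THZ1 against 38.1 and 33.1 with DMSO in CAL-62 (change -0.44). Its groups did not overlap in either line. POLA2 and PRIM1 share exon sequence on the same strand with AP000944.2 and AC117378.1, so their reads may be mixed whatever the strand setting. The polymerase epsilon genes POLE, POLE2 and POLE3 had CAL-62 changes between -0.12 and 0.35, none of them called.

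No clamp, clamp loader or single-strand binding gene was called. PCNA, the sliding clamp, measured 165 and 209 with THZ1, against 124 and 140 with DMSO in CAL-62 (change 0.49, SE 0.20, limma adjusted p = 0.158), and 107 and 101 with THZ1 against 87.4 and 77.6 with DMSO in BCPAP (change 0.33). RPA3, the smallest subunit of the single-strand binding protein, had the largest positive change of the 56 in CAL-62. It measured 19.6 and 24.2 with THZ1 and 10.8 and 11.9 with DMSO (change 0.89, SE 0.37, limma adjusted p = 0.158). RPA3 overlaps UMAD1 on the opposite strand, and its change was -0.07 with ribosomal protein genes as the reference. RFC3, a clamp loader subunit, had the largest positive change in BCPAP, at 27.7 and 21.2 with THZ1 against 21.3 and 15.0 with DMSO (change 0.42, 95% interval -0.27 to 1.10). In CAL-62 it overlapped, at 29.5 and 17.6 with THZ1 against 18.6 and 18.8 with DMSO. RFC4 was lower with THZ1 in all comparisons of libraries within a line and was not called. Its changes were -0.64 in CAL-62 and -0.30 in BCPAP, and it shares exon sequence with EIF4A2 on the opposite strand.

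On the lagging strand, FEN1, which trims Okazaki fragment ends, measured 84.1 and 79.6 with THZ1 and 85.5 and 81.3 with DMSO in CAL-62 (change -0.03, 95% interval -0.43 to 0.38). LIG1, which seals the nicks, measured 40.01 and 41.8 with THZ1 and 25 and 27 with DMSO (change 0.63, limma adjusted p = 0.152). DNA2, a nuclease of the same pathway, had a change of -0.47. In nucleotide supply, TYMS, which makes thymidylate, measured 57.7 and 48.5 with THZ1 against 30.4 and 31.0 with DMSO in CAL-62 (change 0.76, SE 0.21, limma adjusted p = 0.0693). In BCPAP it measured 34.3 and 44.9 with THZ1 against 31.2 and 31.2 with DMSO. RRM1, the large subunit of ribonucleotide reductase, had a change of 0.60 in CAL-62. RRM2, its small S-phase subunit, overlapped at 148 and 128 with THZ1 against 162 and 137 with DMSO. The positive CAL-62 values of LIG1, TYMS and RRM1 turned negative with ribosomal protein genes as the reference. TYMS shares exons with ENOSF1 on the opposite strand, and PCNA, RRM2, TYMS, FEN1, RFC3 and POLD2 have named pseudogene copies that could share reads. FEN1 and RRM2 share exon sequence on the same strand with FADS2 and AC007240.1.

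CHAF1A was the called gene of chromatin assembly. It places histones behind the fork together with CHAF1B. It measured 13.4 and 20.8 with THZ1, against 36.9 and 43.1 with DMSO in CAL-62 (change -1.21, SE 0.26, limma adjusted p = 0.0446), and 29.7 and 22.1 with THZ1 against 36.7 and 35.3 with DMSO in BCPAP (change -0.48, 95% interval -1.08 to 0.13). Neither line had overlapping groups. CHAF1A also has an opposite-strand neighbour that shares exon sequence. The CAL-62 call was lost without either DMSO library of either line or the first CAL-62 THZ1 library (adjusted p 0.0807 to 0.241), and with a minimum mean value of 5. Its partner CHAF1B measured 14.3 and 16.1 with THZ1 and 13.6 and 17.2 with DMSO in CAL-62. UHRF1, which reads newly copied DNA for maintenance methylation, measured 38.1 and 27.9 with THZ1 and 53.3 and 43.2 with DMSO (change -0.54, limma adjusted p = 0.182). E2F1, the transcription factor that drives many S-phase genes, had widely spaced replicates in CAL-62. It measured 22.5 and 60.4 with THZ1 and 33.0 and 56.8 with DMSO in CAL-62, and 24.9 and 31.3 with THZ1 against 31.3 and 31.7 with DMSO in BCPAP.

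Of the 4 fork protection genes none was called, and their CAL-62 changes ran from -0.36 to 0.37. TIMELESS, a fork-pausing factor, measured 25.9 and 23.1 with THZ1 and 20.9 and 16.9 with DMSO in CAL-62 (change 0.37, and negative with ribosomal protein genes as the reference). Its partner TIPIN had a change of -0.36. WDHD1, which ties polymerase alpha to the helicase, measured 7.01 and 6.86 with THZ1 and 11 and 7.39 with DMSO. CLSPN, the checkpoint mediator claspin, had a change of -0.35 with an interval of -1.53 to 0.83.

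In BCPAP no member was called, and no gene of the 11743 tested was (0%, with limma or with limma-voom). An unadjusted limma p under 0.05 was reached by 2 of the 56, GINS1 and POLA2 (3.57%, against 4.01% of all genes). The median member change was 0.07, against 0.07 over all genes, and the range ran from -1.25 to 0.42. The member median was -0.12 without the second BCPAP DMSO library and -0.09 without the first BCPAP THZ1 library. With all libraries and the minimum mean raised to 5, the all-gene median was 0.12, above the members' 0.07. For 43 of the 56 genes the 95% interval lay wholly within a change of 1 in either direction. Under the deposited scaling the THZ1 libraries lay above the DMSO libraries for 11 members (19.6%, against 21.9% of all genes) and below for 8 (14.3%, against 16.4%).

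The change had the same sign in CAL-62 and BCPAP for 44 of the 56 (78.6%, against 75.8% of the 10653 genes tested in both) under the deposited scaling. The same count was 51 (91.1%, against 78.7%) with ribosomal protein genes as the reference and 56 (100%, against 93.5%) with mitochondrially encoded genes. Across the 56 genes the changes in the lines had a Pearson r of 0.84, against 0.66 across all 10653 genes. Genes are not independent replicates, and all points of a line share its 4 libraries. The change also went with the mean level, at an r of 0.50 in CAL-62 both across the 56 and across all genes. Under the deposited scaling, groups that did not overlap and were higher with THZ1 in both lines were found for 10 members (17.9%, against 13.3%): GINS2, MCM2, MCM6, PCNA, POLA1, POLE, RFC2, RRM1, TIMELESS and TYMS. Groups that were lower in both lines were found for 6 (10.7%, against 11.2%): CHAF1A, GINS1, ORC2, POLA2, PRIM1 and RFC4. These shares were near those of all genes.

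Averaged over both lines, GINS1 (change -1.67, limma adjusted p = 0.0209) and CHAF1A (change -0.84, limma adjusted p = 0.0495) were called lower, 3.57% of the members against 3.91% of the 10653 genes (3.40% for lower calls). Leaving out either DMSO library of either line or the second BCPAP THZ1 library ended both calls, and the CHAF1A call also ended without the first CAL-62 THZ1 library. The CHAF1A call was lost as well with median-of-ratios size factors, a pseudocount of 0.1 or a minimum mean value of 5, and neither call held with mitochondrially encoded genes as the reference. Without the first BCPAP THZ1 library 4 members were called, 1 higher and 3 lower, as the count over all genes grew to 802 against 417 with all libraries. A test of the difference between the lines' responses called no member and no gene (0%), with limma or with limma-voom. ORC2 and POLD3 had an unadjusted p under 0.05 for that difference (3.57%, against 5.28% of all genes). The POLD3 difference was -1.24 and the ORC2 difference -0.84, each with a limma adjusted p of 0.843. A call in CAL-62 without one in BCPAP is therefore not shown to be a difference between the lines.

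With DMSO alone, the lines differed in 4 replication genes at the adjusted threshold, and more of the 56 lay higher in CAL-62. In DMSO, CAL-62 was above BCPAP for 40 of the 56 members (71.4%, against 50.6% of all genes), with a median difference of 0.36 in log2(value + 1), against 0.01 over all genes. The same count was 44 with ribosomal protein genes as the reference and 21 with mitochondrially encoded genes, where the median of all genes stood at -0.41 and that of the members at -0.06. Both CAL-62 libraries were above both BCPAP libraries for 29 members (51.8%, against 33.3%) and below them for 12 (21.4%, against 33.3%). The 4 called make up 7.14%, against 14.1% of all genes, with 3 higher (against 6.32%) and 1 lower (against 7.81%). With upper-quartile scaling 3 were called higher and 2 lower, beside 713 and 870 over all genes. With ribosomal protein genes as the reference ORC6 alone was called, beside 462 over all genes. With mitochondrially encoded genes none was, beside 42 over all genes.

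ORC6, the smallest ORC subunit, differed most. It measured 30.4 and 42.7 in CAL-62 and 11.9 and 10.5 in BCPAP, both with DMSO (difference 1.60, SE 0.25, limma adjusted p = 0.00774). MCM2 measured 101 and 86.8 in CAL-62 and 53.8 and 49.0 in BCPAP (difference 0.86, limma adjusted p = 0.0282). GINS3 measured 10.9 and 12.1 in CAL-62 and 6.59 and 5.16 in BCPAP (difference 0.87, limma adjusted p = 0.0499). GINS3 too has an opposite-strand neighbour that shares exon sequence. PRIM1 went the other way, at 18.6 and 16.9 in CAL-62 and 39.6 and 35.2 in BCPAP (difference -1.03, limma adjusted p = 0.0433), and shares exons with HSD17B6 on the opposite strand. The DMSO libraries of the lines did not overlap for these 4 genes. Fewer of the 56 were called when any 1 of the 4 DMSO libraries was left out, and more without either CAL-62 THZ1 library. The calls over all genes moved the same way in those fits. The ORC6 call was lost without the second DMSO library of either line (adjusted p 0.0614 and 0.0683), and the MCM2 call whenever any 1 of the 4 DMSO libraries was left out (0.106 to 0.195). The calls of GINS3 and PRIM1 were lost whenever any 1 of those or of the BCPAP THZ1 libraries was left out, and with a pseudocount of 0.1. That of GINS3 was also lost with limma-voom or with no filter on low values. All 7 helicase partners and all 6 MCM subunits had a positive difference, and with mitochondrially encoded genes as the reference 5 of the 7 and 4 of the 6 did.

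**Figure D3:**
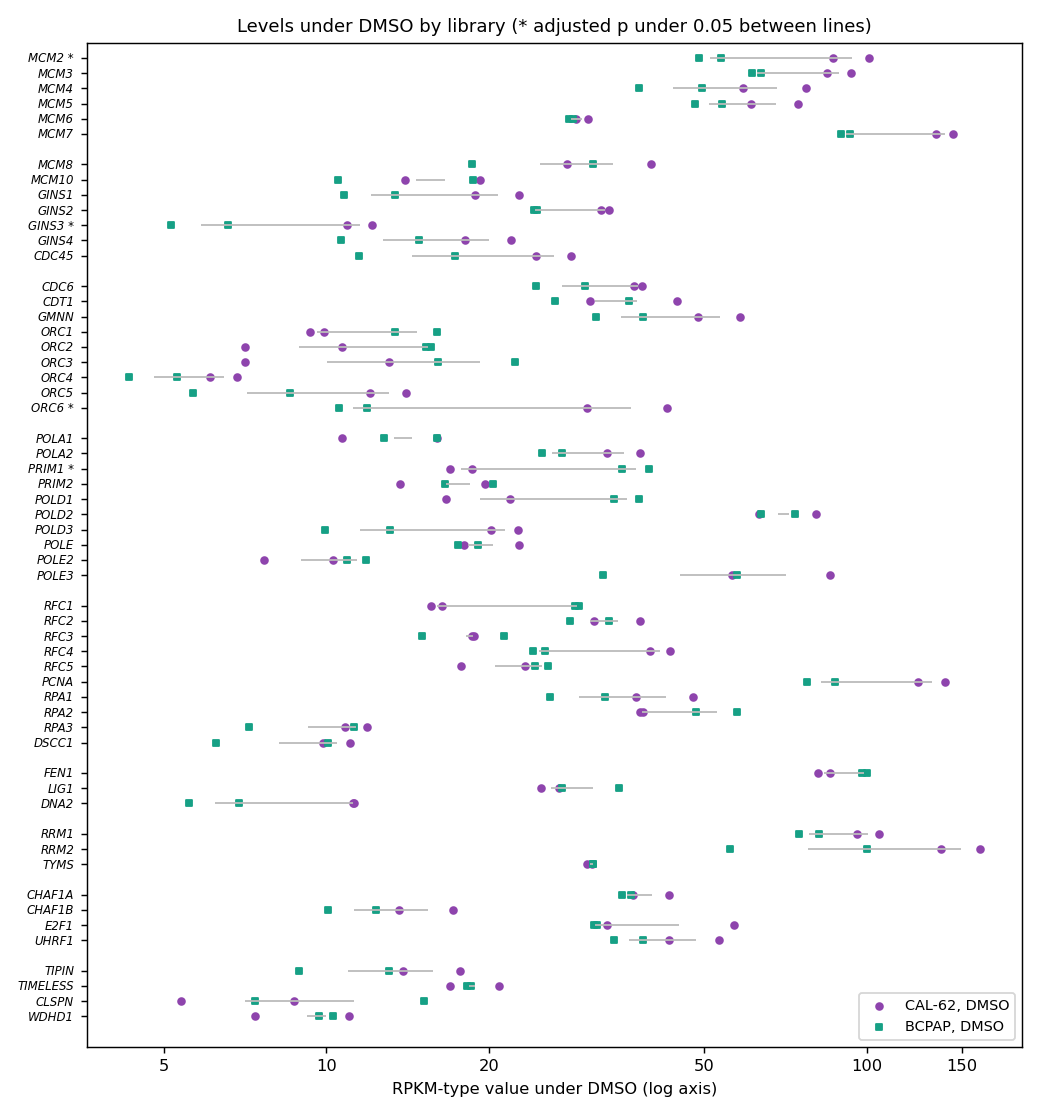
RPKM-type value of the 56 genes in each DMSO library on a log axis, CAL-62 as purple circles and BCPAP as green squares, with a grey line between the group means and genes ordered by role; an asterisk marks a limma adjusted p under 0.05 between lines. ORC6, MCM2 and GINS3 are higher and PRIM1 lower in CAL-62, ORC6 standing at 30.4 and 42.7 against 11.9 and 10.5 in BCPAP.

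Another 45 genes of the same process were also followed. Of these, 44 were tested in CAL-62, and 2 were called there, both lower (4.55%, against 4.62% of all genes). CDC7, the kinase that fires loaded helicases, measured 3.73 and 2.82 with THZ1, against 12.5 and 10.4 with DMSO (change -1.55, SE 0.31, limma adjusted p = 0.0397). E2F8, a repressor of S-phase genes, measured 3.39 and 1.57 with THZ1, against 11 and 9.70 with DMSO (change -1.75, SE 0.33, limma adjusted p = 0.0344). Both CDC7 and E2F8 were lower in each THZ1 library than in each DMSO library of CAL-62. Both calls were lost without any 1 of the DMSO libraries of either line or the second CAL-62 THZ1 library (adjusted p 0.0598 to 0.191), and that of CDC7 also without the first CAL-62 THZ1 library (0.0662). With mitochondrially encoded genes as the reference, or CAL-62 fitted alone, neither was called. In BCPAP neither was called, at changes of -0.52 for CDC7 and -0.68 for E2F8. Averaged over both lines both were called lower (4.55%, against 3.91% of all genes), with a limma adjusted p of 0.0462 and 0.039. Both averaged calls were lost without any 1 DMSO library or the second BCPAP THZ1 library, and that of CDC7 without either CAL-62 THZ1 library. Neither held with mitochondrially encoded genes as the reference. With a minimum mean value of 5 the averaged CDC7 call was lost, and E2F8 was not tested. The largest positive change in both lines was that of POLE4, a small polymerase epsilon subunit. It measured 76.2 and 113 with THZ1 against 33.2 and 60.4 with DMSO in CAL-62 (change 1.04, limma adjusted p = 0.118) under the deposited scaling, and its change was 0.04 with ribosomal protein genes and -0.04 with mitochondrially encoded genes as the reference.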

How the data were processed

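The authors deposited RPKM-type values, 1 per gene and library, which the files do not name. Bowtie2, DESeq2 and build hg19 stand in the submitters' processing notes, without roles. How reads were counted, and the annotation and strand setting, are not given in the sources. Whole reads and gene lengths were recovered from the deposited RPKM values for all 12715 genes (tolerance 0.005 reads). The library totals behind the values followed size factors, so a typical gene is level between libraries of a line. The tables hold only genes with a DMSO mean above 1.

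limma 3.58.1 (R 4.3.3), with a mean-variance trend, was fitted on log2(value + 1), which understates changes of low genes. All 8 libraries entered, with 4 group means and a minimum mean value of 1. Two-sided p-values were adjusted (Benjamini-Hochberg) over all genes tested. The 5 contrasts were THZ1 against DMSO per line, their average and difference, and CAL-62 against BCPAP in DMSO. Scripts were tested on simulated data. Members and lists were chosen with earlier results of these data known. Genes given with every library are those called in any contrast, those with the largest change or highest DMSO level of each role, and a few set by name; some partners within a complex were added after their values were seen. Alternatives were another pseudocount, filters, scalings, limma-voom on the recovered reads, 1 line alone, a replicate block, and each library left out. Replicates of a group differed by more than sampling noise (chi-square per degree of freedom 66.9 to 121), so none was taken as a library deposited more than once; whether they are separate cultures is not shown by this. Exon overlaps and pseudogene names come from GENCODE release 29, on another build, and give names only.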

Additional observations from a re-analysis of the deposited data

How the results depend on the processing

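None of the called member changes reversed under the settings tried. In CAL-62 the 4 called members became 2 with a minimum mean value of 5, 12 with ribosomal protein genes as the reference, 0 with mitochondrially encoded genes as the reference and 0 when CAL-62 was fitted alone, where no gene was called either. The 525 genes called in CAL-62 became 196, 2326, 1 and 0 in the same settings and 797 with upper-quartile scaling. The median member change in CAL-62 was 0.0747 with median-of-ratios size factors, -0.145 with upper-quartile scaling, -0.891 with ribosomal protein genes and -0.948 with mitochondrially encoded genes. In BCPAP the same 4 medians were 0.0235, -0.0407, -0.216 and -0.393, and 1 gene, no member, was called with mitochondrially encoded genes as the reference.

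For the average of both lines, the 2 called members became 1 with a pseudocount of 0.1, 1 with a minimum mean value of 5, 6 with upper-quartile scaling, 10 with ribosomal protein genes, 0 with mitochondrially encoded genes and 4 with limma-voom. The 417 genes called became 748, 1622 and 0 with those 3 scalings. They became 356 with the pseudocount of 0.1, 133 with the minimum mean value of 5 and 549 with limma-voom. For the difference of the responses 1 gene was called with a pseudocount of 0.1 and 1 with mitochondrially encoded genes. Between lines in DMSO, the 4 called members became 2 with a pseudocount of 0.1. With ribosomal protein genes and with mitochondrially encoded genes they became 1 and 0. The 1505 genes called became 1399, 462 and 42 in the same settings.

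Leaving out 1 library at a time gave 0 to 4 called members and 0 to 811 genes in CAL-62, 0 members and 0 to 1 gene in BCPAP, 0 to 4 members and 0 to 820 genes for the average, 0 for the difference, and 0 to 6 members and 283 to 1898 genes between lines. The member median then lay between -0.00702 and 0.131 in CAL-62 and between -0.123 and 0.114 in BCPAP. In such a fit the lone library of a group is assumed to vary like the other groups.

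With the replicate number as a block, called members came to 23 in CAL-62 (13 higher, 10 lower), 23 for the average (12 higher, 11 lower) and 26 between lines (20 higher, 6 lower), so the calls in CAL-62 and for the average were no longer all lower. All genes called came to 4563 in CAL-62 (2503 higher, 2060 lower) and 4365 for the average (2506 higher, 1859 lower). Between lines they came to 4322 (2081 higher, 2241 lower). Calls in both directions were thus found over all genes too, and not only among the members. Deviations of libraries with the same number correlated at 0.469 in CAL-62 and 0.779 in BCPAP. Replicate 1 was above replicate 2 in all 4 groups for 25% of genes and 33.9% of members, and below it in all 4 for 22.1% and 10.7%. The labels do not say what a number marks and each line has 2 numbers, so a pairing would rest on these data alone and was not used for the calls. With 2 libraries a group, an exact permutation test of a single gene cannot go below 0.333, so calls rest on the spread shared across genes.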
